A study of Mus musculus with 778 samples.

Results

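Expression of 10 imprinted genes whose controlling region carries DNA methylation on the maternal allele (*Snrpn*, *Peg3*, *Mest*, *Peg10*, *Impact*, *Plagl1*, *Igf2r*, *Nap1l5*, *Grb10* and *Zrsr1*) was followed through the growth of the mouse oocyte. The genes were taken by name from a table of 23201 genes, and all 10 had a row. Single-cell RNA-seq was carried out on 223 wild-type oocytes of the outbred ICR strain, isolated by diameter. They comprised 46 non-growing oocytes (NGO, under 20 µm), 51 growing oocytes of the first class (GO1, 30 to 45 µm), 26 of the second (GO2, 50 to 55 µm), 44 of the third (GO3, 60 to 65 µm) and 56 fully grown oocytes (FGO, over 70 µm). NGO came from 3- to 4-day-old females and the other 4 stages from 3- to 4-week-old females, so stage and mouse age cannot be told apart between NGO and the rest. Oocytes and embryonic stem cells profiled for methylation and chromatin accessibility were not analysed here.

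Imprinted genes are transcribed from only one parental allele in many somatic tissues, and the choice follows a differentially methylated region that is marked in either the egg or the sperm. For the genes described here the mark is set in the egg: the DNA methyltransferase Dnmt3a and its cofactor Dnmt3l methylate these regions while the oocyte grows, and transcription running across a region in the growing oocyte has been linked to its methylation. After fertilization the zinc finger protein Zfp57, which binds the methylated hexamer TGCCGC, helps to protect the mark. In 8 of the 10 genes the methylated region lies at a promoter and the paternal allele is the expressed one in somatic tissue, whereas *Igf2r* and *Grb10* are maternally expressed in most tissues and have their region inside the gene.

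Promoters of genes with the hexamer are shown first, because Zfp57 binds this short sequence when it is methylated. *Snrpn*, which also held it in 1 window, is not printed. RefSeq promoter windows, which run from 250 bases before to 50 bases after a start site (table build GRCm38.p6), were present for 8 of the 10 genes, with 14 windows in all. *Peg10* and *Impact* had none. Each of the 14 windows matched the mm9 genome (NCBIM37) once without a mismatch, and positions are given on that build. TGCCGC was searched on both strands, so that it reads as TGCCGC or GCGGCA in the strand shown, and each match is in capitals. The following windows are the gene's own strand from 5′ to 3′. They are *Mest* on the plus strand (chr6:30687800-30688099), *Nap1l5* on the minus strand (chr6:58857071-58857370), *Plagl1* on the plus strand (chr10:12810388-12810687) and *Grb10* on the minus strand (chr11:11937374-11937673).
Mest: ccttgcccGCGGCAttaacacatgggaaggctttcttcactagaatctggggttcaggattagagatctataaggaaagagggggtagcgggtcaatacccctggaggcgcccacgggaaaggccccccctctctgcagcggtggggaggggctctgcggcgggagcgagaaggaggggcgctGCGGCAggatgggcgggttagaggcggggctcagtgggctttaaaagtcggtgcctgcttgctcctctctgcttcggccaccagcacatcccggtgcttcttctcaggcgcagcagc
Nap1l5: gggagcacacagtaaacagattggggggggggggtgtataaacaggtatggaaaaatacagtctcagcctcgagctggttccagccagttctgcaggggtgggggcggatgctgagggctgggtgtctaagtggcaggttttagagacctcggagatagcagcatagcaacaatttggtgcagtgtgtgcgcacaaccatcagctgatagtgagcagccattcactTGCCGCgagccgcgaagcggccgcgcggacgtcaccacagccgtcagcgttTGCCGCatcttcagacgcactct
Plagl1: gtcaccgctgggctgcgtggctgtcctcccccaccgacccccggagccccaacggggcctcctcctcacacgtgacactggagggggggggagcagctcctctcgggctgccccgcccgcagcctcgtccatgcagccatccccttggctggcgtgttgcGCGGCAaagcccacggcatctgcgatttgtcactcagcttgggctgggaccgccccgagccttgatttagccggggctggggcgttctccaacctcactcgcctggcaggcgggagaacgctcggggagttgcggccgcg
Grb10: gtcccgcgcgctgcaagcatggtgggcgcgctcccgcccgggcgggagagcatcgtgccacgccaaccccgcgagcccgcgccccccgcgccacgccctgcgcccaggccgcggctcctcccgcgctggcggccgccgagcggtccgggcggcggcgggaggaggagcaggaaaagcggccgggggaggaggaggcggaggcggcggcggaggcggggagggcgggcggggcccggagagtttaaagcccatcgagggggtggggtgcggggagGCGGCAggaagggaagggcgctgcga

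The hexamer occurred in 6 of the 14 windows, belonging to 5 of the 8 genes (*Mest*, *Nap1l5*, *Plagl1*, *Grb10* and *Snrpn*), and in 11.6% of the 32851 windows of all genes. Of all genes with a window, 13.05% held it in any window. The hexamer contains a CpG itself, and these shares were not matched for CpG content. *Mest* and *Nap1l5* held 2 copies in a window, and 2 of the *Mest* windows are almost the same sequence, so that they add the same sites to the count of 6. The *Grb10* window shown had 45 CpG dinucleotides, *Igf2r* 34, *Plagl1* 26, and the *Mest* and *Nap1l5* windows shown had 17. A second *Grb10* window had 9 and a further *Mest* window 8, both without the hexamer. The *Peg3* window held 13 and the *Zrsr1* window 10. The 4 *Snrpn* windows were CpG-poor, with 2 to 7. The median of the 14 windows was 11.5 CpG dinucleotides, against 7 in all windows. A window without the letters says only that they are not in these 300 bases, and methylation of the windows was not analysed here. The windows were not matched to the methylated regions. The *Igf2r* window and the *Grb10* window shown lie near the start of the gene, whereas the methylated region lies inside it.

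**Figure D1:**
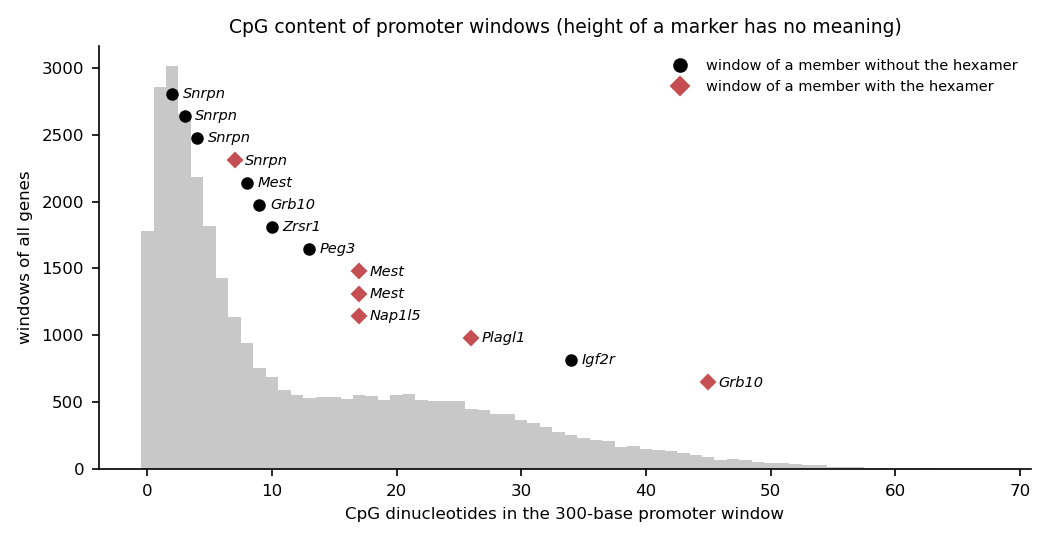
Number of CpG dinucleotides in 300-base promoter windows; grey bars count the windows of all genes, and each marker is 1 window of a member, set apart vertically only for legibility. Windows with the hexamer (diamonds) range from 7 CpG dinucleotides in *Snrpn* to 45 in *Grb10*.

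The RNA values are counts of unique molecular identifiers (UMIs), each standing for 1 captured transcript molecule. A stage total held between 24976634 (GO2) and 64311908 (FGO) UMIs, and single cells held 22279 to 3898137. All cells of a stage were added up, and a gene's total was divided by that of all genes and multiplied by 1000000 (CPM). Counts were not scaled by gene length, CPM is a share of the captured RNA, and a change in RNA content per oocyte is not seen in it. A cell's name tells its stage but neither its library nor its animal, so each stage is 1 pooled sample without replicates: no test between stages was possible, the 95% intervals given are exact and cover counting error only, and cells are not replicates. A gene is said to pass the size rule when it differed at least 2-fold between stages and had at least 10 CPM in the higher one. In GO1 the 10 deepest cells alone held 80.4% of the UMIs, in GO2 73.2%, and elsewhere 42.6% to 49.7%. Sums were therefore set beside the mean over cells, in which every cell counts the same. All 7 oocyte markers exceeded 10 CPM in every stage, with summed levels between 14640 (GO1) and 26850 CPM (NGO).

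A level of 10 CPM or more in some stage was found for 5 members (*Mest*, *Impact*, *Igf2r*, *Grb10* and *Zrsr1*), and 5 stayed under it in every stage (*Plagl1*, *Peg3*, *Nap1l5*, *Peg10* and *Snrpn*). Over all genes, 8671 of 23201 reached that level. Added together, the 10 genes made up 80.4, 85.3, 85.6, 111.6 and 103.8 CPM in the stages from NGO to FGO. Within that total the leading gene changed with stage. *Impact* supplied 44.2% of these UMIs in NGO and 4.87% in GO1, whereas the *Mest* share was 4.19% in NGO and then 32.5%, 39.9%, 31.4% and 20.4% in the later stages. In FGO *Grb10* (25.8 CPM) and *Igf2r* (22.8 CPM) had higher counts than *Mest* (21.1 CPM).

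**Figure D2:**
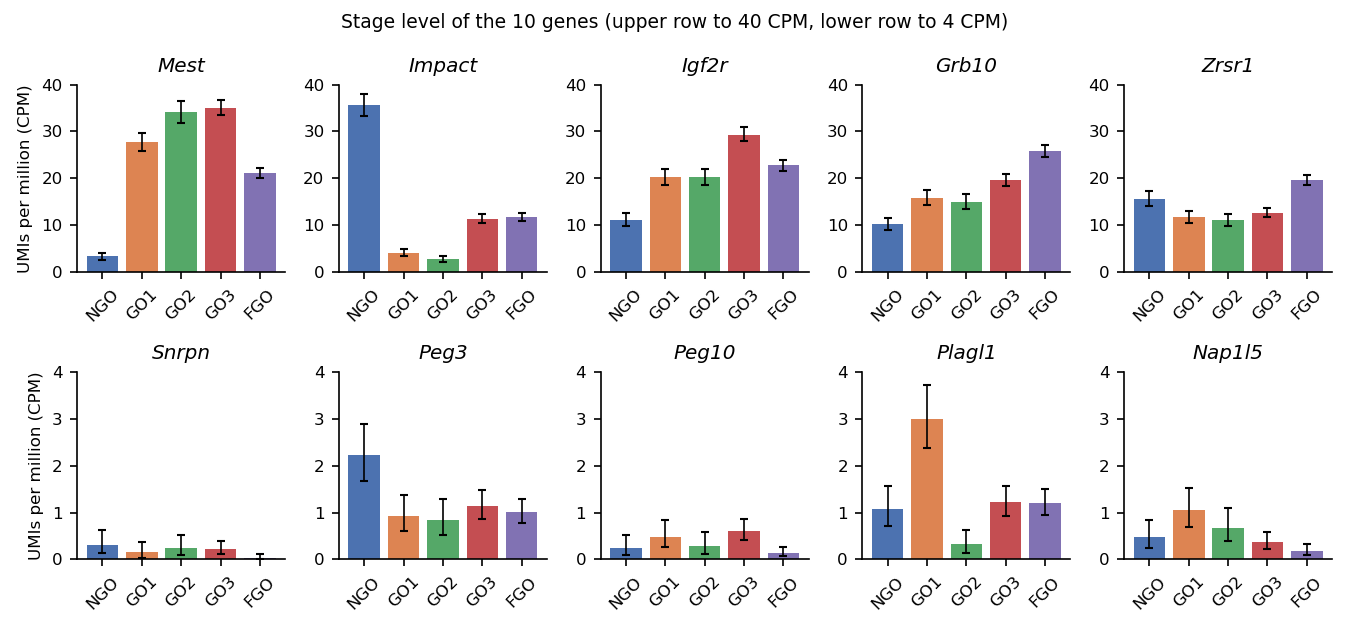
Level of each gene by stage in CPM, from the pooled UMIs of all its cells; bars start at 0 and error bars are exact 95% Poisson intervals (counting error only), with 46, 51, 26, 44 and 56 cells from NGO to FGO. *Mest* is low in NGO alone, *Impact* is highest in NGO, and the 5 genes of the lower row stay under 4 CPM.

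From NGO to GO1, 5 members had 10 CPM or more in either stage. Of these, 1 was higher by the size rule (*Mest*) and 1 was lower (*Impact*). Of the 8527 genes that had 10 CPM or more in NGO or GO1, 20.6% were higher and 25.7% lower by the same rule, so a passing gene was common at this step. From GO1 to GO2 none of the 4 members at that level in either stage passed, where 0.109% of 7356 genes were higher and 3.03% lower. From GO2 to GO3 *Impact* alone of 5 such members was higher and none lower, beside 3.34% of 7334 genes higher and 1.01% lower. From GO3 to FGO none of 5 such members passed, beside 2.41% of 7622 genes higher and 3.54% lower. The median log2 change of the 10 genes was 0.74, -0.12, 0.41 and -0.27 over the 4 steps in turn, and the median over all genes with UMIs in both stages was -0.09, -0.16, 0.10 and 0.07. For the members with 10 CPM or more in either stage the medians were 0.63, -0.04, 0.38 and 0.06. Over all genes at that level they were -0.15, -0.11, 0.08 and 0.06. The 10-gene medians thus depend on genes with few UMIs, and from GO3 to FGO the sign differs. The 3 passes held under each of 6 other ways to scale the stages or weight the cells.

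*Mest* (chr6:30673547-30698457, plus strand) encodes a protein of the alpha/beta hydrolase fold and is expressed from the paternal allele in mesodermal tissues. Its level went from 3.37 CPM in NGO through 27.7, 34.1 and 35.02 in the 3 growing stages GO1, GO2 and GO3 to 21.1 in FGO, based on 85, 741, 853, 1745 and 1360 UMIs. NGO stood apart from all growing stages, GO2 and GO3 did not differ beyond the counting interval, and FGO lay between NGO and GO1. The level in GO1 was 8.21-fold that in NGO (6.55 to 10.4), and FGO was 1.66-fold lower than GO3 (1.54 to 1.78), which is under the 2-fold limit. FGO kept 6.27 times the NGO level (5.03 to 7.90).

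The single oocytes spread widely, and by the median cell FGO lay above GO1 rather than below it. The median NGO had 1.83 CPM of *Mest*, the median GO1, GO2 and GO3 cells 12.1, 32.7 and 33.1 CPM, and the median FGO 15.5 CPM. Of the 44 GO3 cells, 28 lay above the highest NGO cell (30.3 CPM), whereas in FGO 8 of 56 did, so the stages overlapped cell by cell. No *Mest* UMI was seen in 19 of 51 GO1 cells, whose median depth was 48470 UMIs against 265300 in the cells with one. The Spearman correlation of the *Mest* level with cell depth was 0.57 over the 51 GO1 cells and 0.59 over the 56 FGO cells. It was 0.10 over the 46 NGO cells. The mean over cells gave a smaller NGO to GO1 difference (3.96-fold) and put *Mest* 2.03-fold higher in GO2 than in GO1 and lower in FGO than in GO3 by a log2 change of -1.07, both past the size rule.

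*Mest* is also expressed outside the germ line, and the oocytes were washed to remove the follicle cells around them. The 8 granulosa markers summed to 12.7, 38.3, 30.1, 28.1 and 16.6 CPM over the stages in order of growth. The sum moved with *Mest* from NGO to GO1 (higher) and from GO3 to FGO (lower), but it was lower in GO2 than in GO1. From NGO to GO1, *Cyp19a1*, the aromatase of granulosa cells (1.11 to 16.3 CPM), and the nuclear receptor gene *Nr5a2* (6.91 to 14.5 CPM) passed the size rule. *Inha* (1.47 to 3.59 CPM), *Inhbb* (0 to 0.748 CPM) and *Hsd17b1* (0.119 to 0.561 CPM) had higher values in GO1, *Fshr* had 2.82 and 2.32 CPM, and *Amh* and *Foxl2* stayed at or under 0.233 CPM in every stage. In the cells without a *Cyp19a1* UMI, *Mest* had 3.39 CPM in NGO (2.57 to 4.39, 32 cells), 12.6 in GO1 (7.88 to 19.1, 20 cells) and 16.2 in FGO (14.2 to 18.3, 30 cells). GO2 had 1 such cell and GO3 had none. In the cells without a UMI of any of the 8 markers, *Mest* had 2.80 CPM in NGO (0.910 to 6.54, 7 cells), 13.5 in GO1 (4.94 to 29.3, 9 cells) and 1.38 in FGO (0.167 to 4.98, 5 cells). Cells without these UMIs were shallow in GO1, where the 20 without *Cyp19a1* held 1748841 of 26752883 UMIs, and a count of 0 does not show that granulosa RNA was absent. The part of granulosa RNA in the *Mest* differences was not tested. The 8 theca and stroma markers summed to 2.38 to 7.86 CPM and were highest in NGO. The 6 blood and endothelial markers summed to 9.09 to 50.5 CPM, with *Pecam1*, which germ cells also express, at 4.604 CPM in NGO and 26.7 to 48.8 CPM later, while both haemoglobin genes were at 0 in all stages.

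*Impact*, the mouse homologue of a yeast regulator of translation under amino acid starvation, lies at chr18:13130761-13151457 on the plus strand. It had 35.6 CPM in NGO, only 4.15 and 2.80 in the first growing classes GO1 and GO2, and 11.4 and 11.9 in the late stages GO3 and FGO. The stage sums ran from 70 UMIs in GO2 to 896 in NGO. NGO was highest and GO2 lowest, and GO3 and FGO did not differ beyond the counting interval. GO1 was 8.57-fold lower than NGO (7.03 to 10.5), GO3 was 4.06-fold higher than GO2 (3.16 to 5.28), and FGO remained 3.00-fold lower than NGO (2.72 to 3.31). At the NGO to GO1 step, 3 of the 7 oocyte markers were also lower past the size rule, beside 25.7% of all genes at 10 CPM. They were *Figla* (9.11-fold), *Ddx4* (5.24-fold) and *Zp3* (2.66-fold). The remaining markers did not pass. *Dppa3* went from 9193 to 4955 CPM, *Gdf9* from 4919 to 4755, *Dazl* from 482.9 to 483.1 and *Kit* from 88.3 to 104.1. The part of the markers in the *Impact* difference was not tested.

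Every one of the 46 NGO cells had an *Impact* UMI, and the median cell had 36 CPM. In GO1 the median cell had none, since 30 of 51 cells lacked a UMI, and 37 of 51 lay below the lowest NGO cell (5.29 CPM). In GO2 20 of 26 cells did so, but only 5 of 44 in GO3 and 11 of 56 in FGO. The GO1 cells without an *Impact* UMI had a median depth of 66580 UMIs, against 256200 in those with one, so depth enters these counts. When each cell was thinned to 20000 UMIs, *Impact* was seen in 27 of 46 NGO cells, 4 of 51 GO1 cells, 1 of 26 GO2 cells, 10 of 44 GO3 cells and 10 of 56 FGO cells. At that depth the share was 58.7% in NGO (43.2 to 73) and 7.84% in GO1 (2.18 to 18.9).

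**Figure D3:**
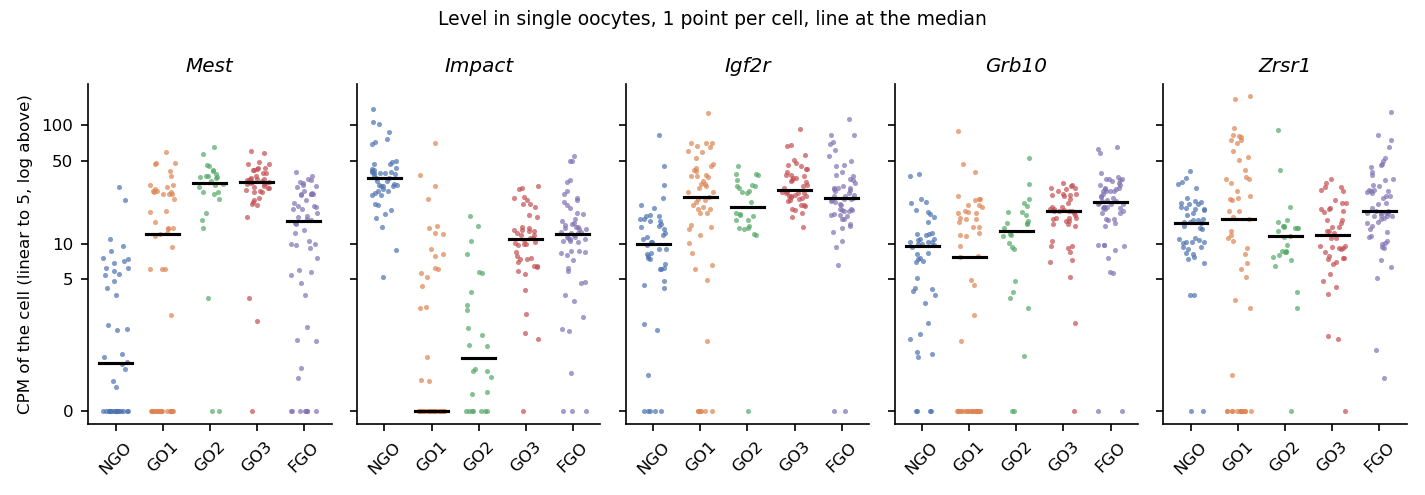
Level of the 5 genes that reached 10 CPM, in single oocytes by stage; each point is 1 cell, the black line is the median over cells, and the axis is linear to 5 CPM and logarithmic above. The *Mest* median goes from 1.83 CPM in NGO to 33.1 in GO3, and the *Impact* median from 36 in NGO to 0 in GO1.

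*Igf2r* (chr17:12875272-12962530, minus strand) encodes the cation-independent mannose 6-phosphate receptor, which takes up and degrades Igf2. It had 11.2 CPM in NGO, 20.2 in both GO1 and GO2, 29.3 in GO3 and 22.8 in FGO, from 282, 541, 505, 1462 and 1467 UMIs. NGO was lowest and GO3 highest, and GO1 and GO2 did not differ beyond the counting interval. GO1 was 1.81-fold higher than NGO (1.56 to 2.09), short of the size rule. It passed with TMM factors (2.02-fold), by the mean over cells (2.38-fold), without the 10 deepest cells (2.40-fold) and with equal numbers of cells (2.31-fold), and not with size factors (1.94-fold) or thinned cells (1.80-fold). FGO was 2.04-fold higher than NGO (1.79 to 2.32). *Airn*, the antisense RNA that starts inside *Igf2r* and silences it on the paternal allele in somatic tissue, was low throughout, with 4.68 CPM in NGO and 1.24 to 1.48 in the later stages.

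*Grb10*, an adaptor protein that restrains growth factor receptor signalling, lies at chr11:11830511-11938686 on the minus strand. Stage by stage it had 10.3, 15.9, 15.1, 19.6 and 25.8 CPM, from 259, 425, 376, 976 and 1656 UMIs. It was highest in FGO, also by the mean over cells (23.9 CPM), and GO1 and GO2 did not differ beyond the counting interval. No consecutive pair passed the size rule, but FGO was 2.51-fold higher than NGO (2.20 to 2.87). The NGO to GO1 difference changed with the weighting of the cells, and its log2 value was 0.63 in the sums, 0.14 as a mean over cells and -0.21 without the 10 deepest cells of each stage.

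*Zrsr1* (chr11:22873215-22876498, plus strand) is a retrogene of a U2AF-related splicing factor. NGO had 15.7 CPM, the growing classes 11.7 (GO1), 11.1 (GO2) and 12.7 (GO3), and FGO 19.7, from 395, 313, 276, 633 and 1264 UMIs. The sums were highest in FGO, and those of GO1, GO2 and GO3 lay close together, whereas the mean over cells was 30.1 CPM for GO1, against 14.9 and 14.03 CPM for the next growing classes and 26.5 CPM for FGO. In the sums no step passed the size rule, the largest being the 1.55-fold higher level in FGO than in GO3 (1.40 to 1.70). The direction from NGO to GO1 differed with the weighting of the cells, and the log2 change was -0.42 in the sums but 0.93 as a mean over cells and 1.09 without the 10 deepest cells. The level was lower in GO2 than in GO1 past the size rule by the mean over cells (log2 -1.02) and without the 10 deepest cells (-1.20), and lower in GO3 than in GO2 with thinned cells (-1.08). The value from thinned cells rests on few UMIs, with *Zrsr1* seen in 10 of 26 GO2 and 10 of 44 GO3 cells. Single GO1 cells ranged from 0 to 175 CPM, with 13 of 51 above the highest NGO cell and 13 without a UMI, and the shallower cells had a higher mean (36.7 CPM) than the deeper ones (23.8 CPM).

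**Figure D4:**
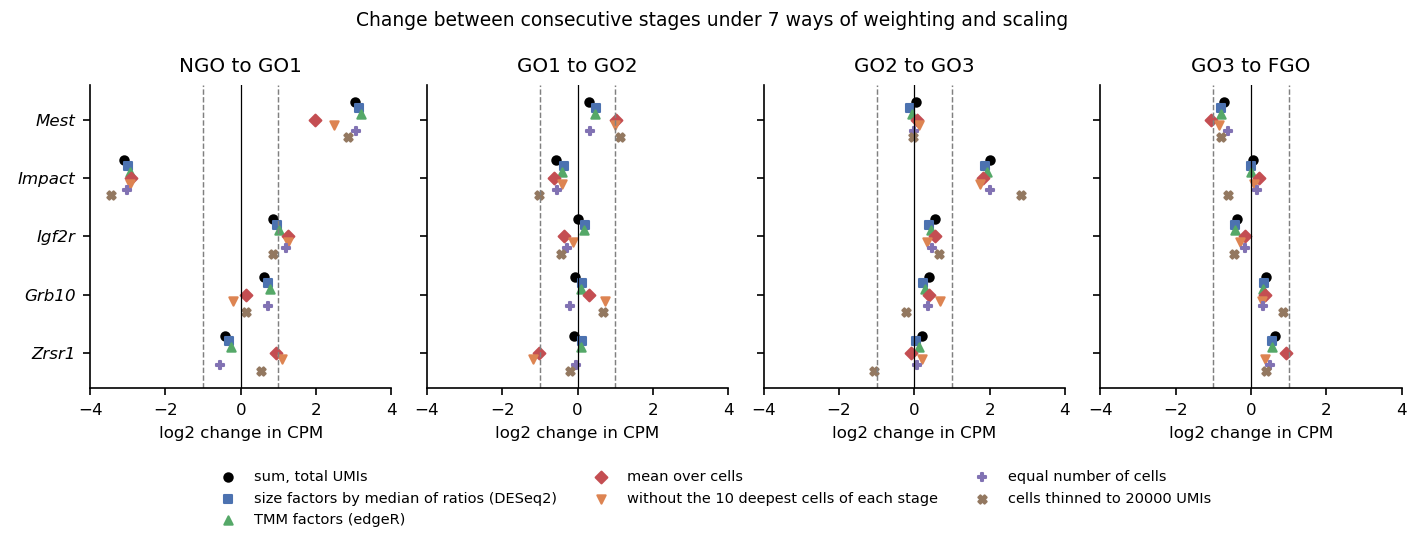
Log2 change in CPM between consecutive stages (second over first) for 5 genes, with 1 marker for each of 7 ways of scaling stages or weighting cells; dashed lines mark a 2-fold change. All 7 markers of *Mest* and *Impact* from NGO to GO1 lie beyond the dashed lines on opposite sides, while those of *Zrsr1* straddle 0.

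The other 5 genes gave few molecules. *Plagl1*, a zinc finger transcription factor of an imprinted growth network, had 1.07, 2.99, 0.320, 1.22 and 1.20 CPM in stage order, from 27, 80, 8, 61 and 77 UMIs. It was highest in GO1, where it exceeded GO2 9.34-fold (4.52 to 22.4), below the 10 CPM that the size rule asks for. The ratio was 4.44-fold by the mean over cells and 3.20-fold without the 10 deepest cells. *Peg3*, a large zinc finger protein known for its role in maternal care, had 2.22, 0.935, 0.841, 1.14 and 1.01 CPM from NGO to FGO. In the sums NGO was 1.94-fold higher than GO3 (1.32 to 2.86), the next stage in order, and 2.38-fold higher than GO1 (1.46 to 3.98), but it was 1.33-fold higher than GO1 by the mean over cells and 1.20-fold without the 10 deepest cells. Both of the last values lean on 1 shallow GO1 cell of 82450 UMIs. It held 6 of the 25 *Peg3* UMIs of GO1, or 72.8 CPM, where the mean over GO1 cells was 1.95 CPM.

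*Nap1l5*, a retrogene related to nucleosome assembly proteins, had 0.476, 1.05, 0.681, 0.381 and 0.187 CPM, and no neighbours in the order of its levels differed beyond the counting interval. Stages further apart did, and FGO was 5.61-fold lower than GO1 (2.76 to 12.1), from 12 against 28 UMIs. *Peg10*, derived from a retrotransposon and needed for the placenta, had 0.238, 0.486, 0.280, 0.602 and 0.140 CPM. FGO was 4.30-fold lower than GO3 (1.99 to 10.3), from 9 against 30 UMIs. *Snrpn*, which encodes a neuronal component of the splicing machinery, gave 8, 4, 6, 11 and 2 UMIs, or 0.0311 to 0.318 CPM, and was seen in 2 to 6 cells of a stage. *Snurf*, whose reading frame lies on the same transcripts as that of *Snrpn*, was listed at 0 in every stage. How reads shared by the pair were counted is not stated, so the *Snrpn* level is uncertain.

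Several members overlap another gene. In the GENCODE annotation of mm9, *Mest* shares 904 of its 3937 exon bases with *Copg2* on the opposite strand, and *Zrsr1* shares 203 of 3284 with *Commd1*, within which it lies. *Copg2* had 8.25 CPM in NGO and 10.3 to 12.9 later, and *Commd1* had 254 to 348 CPM over the stages. *Igf2r* and *Airn*, and *Nap1l5* and *Herc3* (12.8 CPM in NGO and 4.32 to 7.40 later), overlap without shared exon bases. Whether the counting used the strand is not stated, so reads of these pairs may not have been told apart. Of the adjacent genes, *Usp29* next to *Peg3* had 1.79 CPM in NGO and 8.67 in GO1, and *Sgce*, which shares a promoter region with *Peg10*, had 0.318 in NGO and 3.51 in FGO. *Hrh4* next to *Impact* was listed at 0 in all stages, *Hymai* at the *Plagl1* locus had at most 4 UMIs in a stage, and *Ddc* next to *Grb10* stayed at or under 0.641 CPM.

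The 5 genes above 10 CPM followed different courses. The root mean square difference between the courses of a pair, taken on log2(CPM + 1) after centring each gene over the 5 stages, was smallest for *Igf2r* and *Grb10* (0.25) and largest for *Mest* and *Impact* (2.19). Among 8671 genes, the courses nearest to *Mest* were those of *Cdh2* (0.05), *Ctsh* (0.05) and *Pecam1* (0.08). *Cdh2*, the N-cadherin gene, had 3.45 CPM in NGO and 29.2 in GO1. Nearest to *Impact* were *Itpa* (0.12), *Zfp622* (0.13) and *Edc3* (0.14), and *Itpa* had 72.3 CPM in NGO, 6.53 in GO2 and 25.8 in FGO. *Gm15506*, *Cep57* and *Spry1* were nearest to *Igf2r*, *Sptssa*, *AI463170* and *Ift57* to *Grb10*, and *Sh2d3c*, *Nudt22* and *Gps2* to *Zrsr1*. Only 10 genes lay within 0.2 of *Impact* and 34 within 0.2 of *Mest*, whereas 251 did so for *Igf2r* and 521 for *Zrsr1*. These are likenesses over 5 points, each a stage sum.

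Cell by cell, the levels of the 5 genes were compared by rank, but many cells held few UMIs of a gene. In GO1, 30 of 51 cells had no *Impact* UMI, 21 no *Grb10* UMI and 19 no *Mest* UMI. Counting noise of this kind lowers a correlation, so a low value does not show that levels are unrelated. Over the 10 pairs in each of the 5 stages, Spearman correlations ran from -0.27 to 0.59, with the highest between *Mest* and *Grb10* over the 26 GO2 cells. Both of these genes also had a positive correlation with depth in GO2 (0.26 and 0.36), and cells of a stage share depth and library.

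Other imprinted genes gave a background for these patterns, and their levels are given as stage sums only. Of 17 further paternally expressed genes of maternally methylated regions, 3 reached 10 CPM in NGO or GO1 (*Gpr1*, *Mcts2* and *Inpp5f*). *Inpp5f* passed the size rule at no step, and *Kcnq1ot1* reached 10 CPM only in FGO (11.4 CPM). *Gpr1* was 5.79-fold higher in GO1 than in NGO (197 against 34.1 CPM) and 2.08-fold lower in FGO than in GO3, *Mcts2* was 2.67-fold lower in GO1 than in NGO, and *Kcnq1ot1*, the silencing RNA of the *Kcnq1* cluster, was 2.02-fold higher in FGO than in GO3. Of 24 maternally expressed genes from clusters with a maternally methylated region, 14 reached 10 CPM in NGO or GO1. *Phlda2* (11.9-fold), *Asb4* (3.64-fold) and *Cobl* (3.20-fold) were higher in GO1, and *Cd81* (7.31-fold) and *Gnas* (2.27-fold) were lower. Over all genes at 10 CPM in either stage, 20.6% were higher and 25.7% lower at this step. From GO3 to FGO *Cd81* was 3.10-fold higher, and *Asb4* and *Cobl* were 2.22-fold and 2.40-fold lower, beside 2.41% of all such genes higher and 3.54% lower. None of the 7 measured genes of paternally methylated regions, *H19* and *Igf2* included, reached 10 CPM, and the highest of them was *Meg3* with 3.21 CPM in GO1.

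The genes that set and guard the methylation were detected in every stage. All 16 of those listed reached 10 CPM in NGO or GO1, of which 5 were higher in GO1 and 3 lower by the size rule. Over all 8527 genes at that level, 20.6% were higher and 25.7% lower, so passing genes were common here too. *Dnmt3l* went from 21.03 CPM in NGO to 153.4, 178 and 111.4 in the growing classes and 51.5 in FGO. In the stage sums *Dnmt3l* was 7.29-fold higher in GO1 than in NGO (6.66 to 8.001) and 2.16-fold lower in FGO than in GO3 (2.07 to 2.26). GO2 was 1.16-fold higher than GO1, short of the size rule. No *Dnmt3l* UMI was seen in 6 of 46 NGO cells, 14 of 51 GO1 cells and 1 of 26 GO2 cells. The paper, comparing single cells, reports a significant rise of this gene between GO1 and GO2. The levels in this paragraph are stage sums only, and whether they hold with every cell weighted the same was not tested. *Dnmt3a* varied less, from 163 to 257 CPM. *Kdm1b*, a histone H3K4 demethylase needed for several maternal imprints, had 361 CPM in NGO and 96.9, 46.2 and 95.2 CPM in the growing classes. The maintenance factors *Dnmt1* and *Uhrf1* were 2.12-fold and 3.89-fold lower in GO1 than in NGO, and *Nlrp2*, *Ctcf*, *Trim28* and *Kdm1a* were 3.23-fold, 2.47-fold, 2.23-fold and 2.22-fold higher. *Zfp57* passed at no step, at 310 to 454 CPM, and *Dppa3*, which protects maternal methylation in the zygote, had 4707 to 9193 CPM. From GO1 to GO2 *Zfp445*, a second imprint-binding zinc finger protein, was 2.58-fold lower.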

How the data were processed

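The RNA table deposited for this series holds raw counts, UMIs per gene and cell. According to the methods, barcodes told the cells apart, and the authors trimmed the reads, mapped what remained to the mm9 transcriptome with Tophat, collapsed duplicates by UMI and kept cells by detected genes, transcript number and spike-in share. Strand use is not given in the sources used here. Here the cells of each stage were pooled by adding their UMIs (Python 3.11.15, pandas 2.3.3) and scaled to 1000000. The columns carry the stage and no replicate, so the edgeR and DESeq2 tests meant for counts were not run. Only their scaling factors were used (edgeR 4.0.16, DESeq2 1.42.0) as alternatives, beside the mean over cells, cells thinned to 20000 UMIs, 26 cells per stage, and leaving out the 10 deepest cells of each stage. For ratios, 95% intervals were exact binomial (scipy 1.17.1), and for sums exact Poisson. The scripts were tested on simulated data. The genes, the lists and the size rule were chosen with earlier results of these data known. Named are all members, their neighbours, the 3 nearest courses per expressed member, and list genes that passed the rule from NGO to GO1 or GO3 to FGO or were most abundant. Other list members (*Dnmt3a*, *Zfp57*, *Zfp445*, *H19*, *Igf2* and the granulosa markers that did not pass) were chosen after their values were seen. The 4 RNA libraries are not tied to columns, so a library effect cannot be told apart from stage.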

Additional observations from a re-analysis of the deposited data

How the results depend on the processing

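The number of the 10 genes that passed the size rule depended on the filter and the weighting more than on the scaling. From NGO to GO1 it was 2, and it became 3 with TMM factors, by the mean over cells and with equal numbers of cells. It became 4 without the 10 deepest cells of each stage, 7 with no filter on low counts, 0 with 50 CPM asked for in the higher stage and 4 with a limit of 1.5-fold. From GO1 to GO2 it was 0, against 2 by the mean over cells, 1 without the 10 deepest cells, 1 with thinned cells and 1 with no filter. From GO2 to GO3 it was 1, against 2 with thinned cells, 3 with no filter and 0 at 50 CPM. From GO3 to FGO it was 0, against 1 by the mean over cells, 3 with no filter and 2 at 1.5-fold. The cause of these differences was not tested, except that the filter and limits change by construction how many genes can pass. The added genes were *Igf2r*, *Zrsr1*, *Grb10* and *Mest* among the expressed members, and the low ones with no filter. No result that passed the rule changed its direction, whereas changes under the limit did so 23 times among the 5 expressed members over 6 settings. Of the values of single genes, 160 moved by less than their counting interval and 61 moved further. Scaling by size factors shifted the median of all genes by 0.10, 0.19, -0.15 and -0.06 on the log2 scale over the 4 steps. No paired analysis was possible because each stage is 1 pooled sample and the columns carry no replicate number. Depth limits the 5 low genes, for which 0 UMIs in a stage would allow 3 UMIs, or 0.0467 to 0.120 CPM.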
